A study of Mus musculus with 8 samples.

Results

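Acinar cells make up most of the exocrine pancreas. They synthesise digestive enzymes and enzyme precursors, pack them into zymogen granules and release them into the duct, and the transcription factor complex of *Ptf1a* and *Rbpjl* with *Nr5a2* and *Bhlha15* (also called *Mist1*) keeps this programme on. Islets are freed from the surrounding acinar tissue by enzyme digestion and picked by hand, and RNA of acinar genes is commonly found in islet RNA. The 41 genes described here were listed by symbol as acinar enzymes, granule and secreted proteins, Reg proteins, acinar transcription factors and *Gatm*, an enzyme of creatine synthesis. Of the 26894 genes with a probe on the array, 40 belong to the list, and only *Try10* had none. For each gene the probe with the highest mean over the 8 deposited arrays was taken. Of the 40 genes, 37 were measured well above background on at least 4 arrays and were tested, among 17860 genes tested in all, and 30 were measured on every array. *Reg3a*, *Reg3g* and *Ptf1a* were not well above background on any array.

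The 8 arrays held RNA of islets from male mice, 4 samples of βUCP2Tg and 4 of WT islets. βUCP2Tg mice carry a mouse *Ucp2* cDNA under the rat *Ins2* promoter, which acts in β-cells, and WT mice are littermates without it. By the methods both are on a C57BL6/J background, with islets taken at 8 to 12 weeks of age, and the islets of both groups were kept at 200 mg/dL glucose for 8 h before RNA extraction. The sources used here do not say how many mice gave 1 sample, so p-values measure the spread between these samples. Levels are given as normalized log2 intensity, which is log2 of the processed signal of a probe minus the 75th percentile of its array, so that 1 unit is a 2-fold difference. Probes differ in how strongly they bind, so that a brighter probe is not read as more RNA. Brightness served only to pick the genes shown and to sum the level of a list, in which bright probes weigh most.

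*Ucp2* was 6.24 log2 units higher in βUCP2Tg islets (SE 0.18, n = 4 per group, limma adjusted p = 9.3e-06), as the labels give it. The islet hormone genes *Ins1*, *Ins2*, *Gcg* and *Sst* were well above background on every array and not called (differences from -0.18 to 0.04), and *Ins1* and *Ins2* lay between 8.25 and 9.37. No spot was saturated. Of 10 quality metrics with a set range, 2 were out of range on WT arrays 1 and 3 and none on the others. The unscaled 75th percentile was 9.0 to 9.16 log2 units on the βUCP2Tg arrays and 8.78 to 8.89 on the WT arrays. The βUCP2Tg arrays lay in row 2 of the slide and the WT arrays in row 1, so that genotype and row cannot be told apart.

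Some acinar genes come in families of close copies, and their probes are shown first because they decide what a signal can stand for. The probes are those of the array, read 5′ to 3′ from the deposited table. The probes of *Try4* and *Try5*, both trypsinogens, share a run of 31 bases. The 30 bases below differ by the single substitution T7C, counted from the first base of the *Try4* probe and in capitals.
Try4: cattgcTgcaaactaagcatccctttgaag
Try5: cattgcCgcaaactaagcatccctttgaag
A run shared with the probe of another gene is in capitals below. *Prss3* shares 31 bases with *Gm5771*, a trypsinogen-like gene, of which the first 30 are printed, since the sequence shown ends inside the run. *Amy1*, the salivary form of amylase, shares 23 bases with *Amy2a5*, a pancreatic amylase. *Klk1*, tissue kallikrein, shares 28 bases with *Klk1b4*, a gene of the same cluster.
Prss3, first 50 bases: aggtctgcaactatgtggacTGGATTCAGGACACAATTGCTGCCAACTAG
Amy1: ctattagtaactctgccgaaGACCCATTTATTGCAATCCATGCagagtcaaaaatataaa
Klk1: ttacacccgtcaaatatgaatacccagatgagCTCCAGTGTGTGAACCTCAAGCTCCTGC
Klk1b4: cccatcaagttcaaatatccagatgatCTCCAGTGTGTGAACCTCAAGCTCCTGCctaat
A signal of *Try4*, *Try5*, *Prss3*, *Amy1* or *Klk1* may therefore hold RNA of the partner. *Prss1* also shares 25 bases with *Gm5771*. Probes were compared only with each other, so that a probe without a shared run may still bind RNA of a related gene. The other tested acinar genes shared no run of 20 bases with the probe of another named gene, among them *Cela3b*, an elastase, *Ctrc*, a chymotrypsin-like enzyme that degrades trypsinogen, and *Prss2*, anionic trypsinogen.
Cela3b: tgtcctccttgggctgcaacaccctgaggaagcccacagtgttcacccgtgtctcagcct
Ctrc: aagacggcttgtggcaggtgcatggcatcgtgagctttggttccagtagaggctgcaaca
Prss2: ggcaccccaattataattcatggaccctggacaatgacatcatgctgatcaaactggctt

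Across the 37 tested acinar genes, levels differed far more between arrays of 1 genotype than those of most genes, and no difference between βUCP2Tg and WT islets passed the test. The mean was lower in βUCP2Tg islets for 36 genes and higher for *Gatm* alone, where 53.2% of all tested probes were lower. The median difference, βUCP2Tg minus WT, was -1.70 log2 units, and that of all tested probes was -0.02. By limma with Benjamini-Hochberg adjustment over all 35363 probes, 0 of the 37 were called at an adjusted p under 0.05 and over 1.5-fold, where 0.41% of probes were called (0.206% higher and 0.204% lower). The adjusted p ran from 0.126 for *Bhlha15* to 0.806 for *Reg2*. At an unadjusted p under 0.05 there was 1 acinar gene, *Bhlha15*, where 25.2% of all probes passed. The methods' t-test with the same adjustment called 0 of them and 0.0736% of probes.

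The 95% interval of the difference held 0 for 36 of the 37 genes, and for 32 it also held a level 4-fold lower in βUCP2Tg islets, so these 8 arrays do not show that the genotypes were alike. In 34 genes the range within each genotype was larger than the difference of the means. The βUCP2Tg and WT arrays overlapped in all 37 genes, where 12.4% of all probes had no overlap. In this whole-islet RNA, fewer acinar cells and less RNA per cell cannot be told apart.

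**Figure D1:**
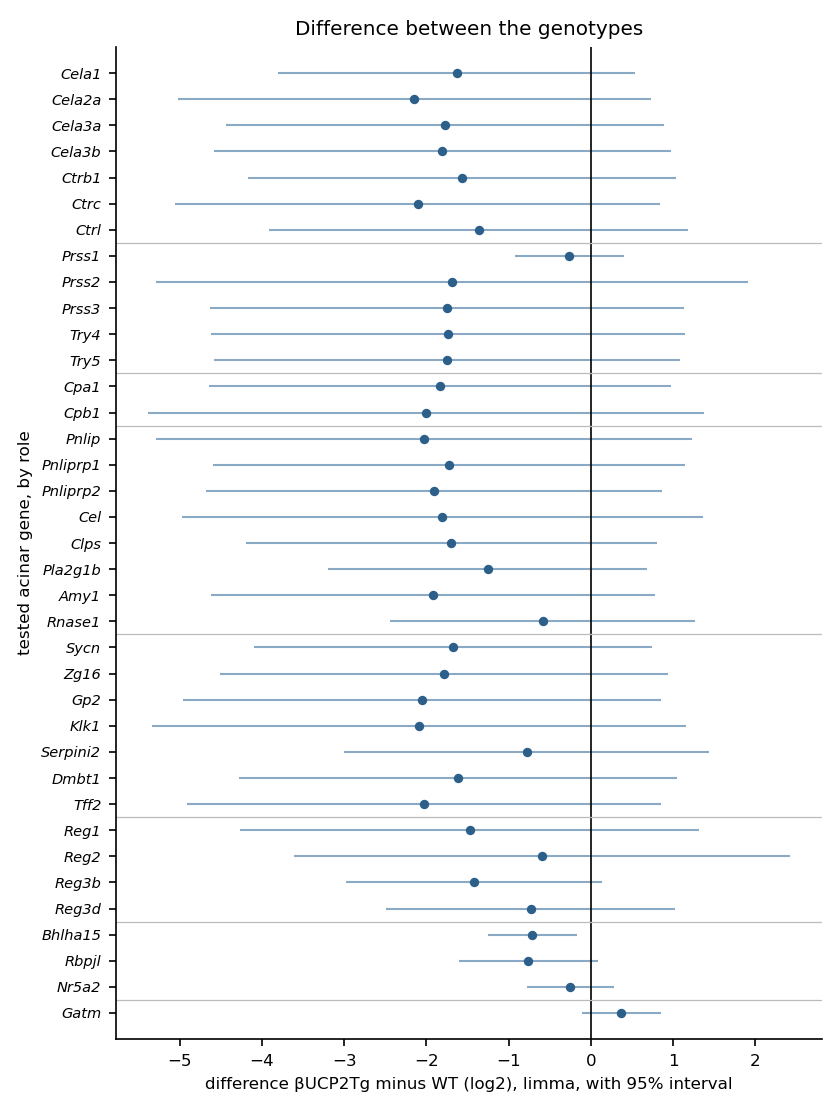
Difference βUCP2Tg minus WT (log2) of each of the 37 tested acinar genes, with its 95% interval from limma (n = 4 per group) and grey lines between the role groups. Only the interval of *Bhlha15* lies wholly below 0, and the point of *Gatm* alone is above 0.

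The order of the arrays was largely shared. In 31 of the 37 genes the 4 highest arrays were βUCP2Tg 4 and WT 1, 2 and 3, as in 6.58% of all tested probes. This set, in any order inside it, is called the shared order and was chosen with these values known. Genes that move together are not separate observations. WT 3 was the highest array in 29 genes (14.3% of all probes) and βUCP2Tg 1 the lowest in 25 (10.4% of all probes). βUCP2Tg 4 was the highest of the βUCP2Tg arrays in 35 genes, and WT 4 the lowest of the WT arrays in 31. Some neighbours changed places between genes: WT 3 was above WT 2 in 34 genes, βUCP2Tg 4 above WT 2 in 13, and βUCP2Tg 3 above WT 4 in 19. By contrast, βUCP2Tg 4 was above WT 1 in all 37. The genes that departed from the shared order were *Prss1*, *Reg2*, *Reg3b*, *Bhlha15*, *Nr5a2* and *Gatm*.

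**Figure D2:**
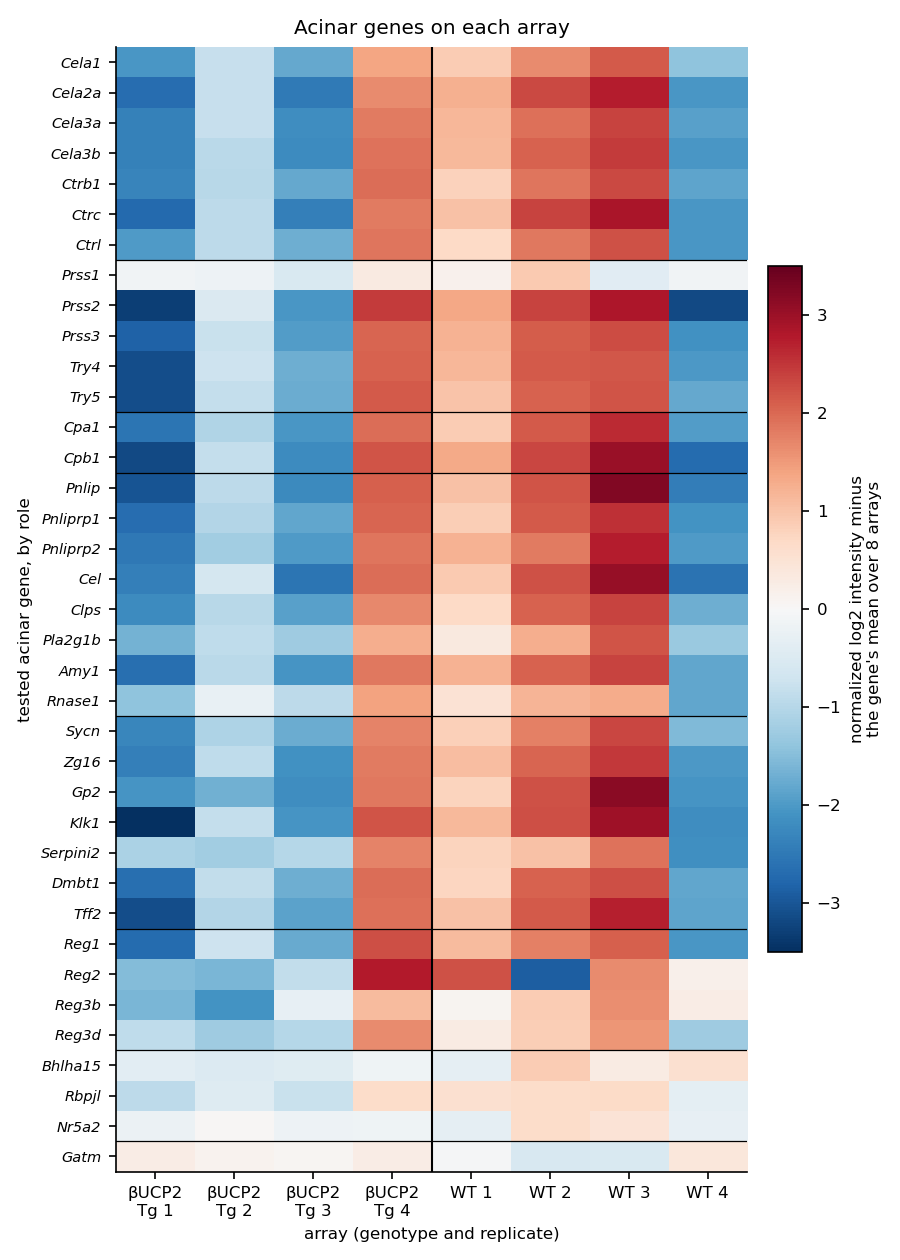
Each row is a tested acinar gene, grouped by role, and each column an array, with colour for the normalized log2 intensity minus the gene's mean over the 8 arrays. The columns of βUCP2Tg 4 and WT 1 to 3 are red and the other 4 columns blue in nearly all enzyme and granule genes, while *Prss1*, *Reg2*, *Bhlha15*, *Nr5a2* and *Gatm* stand apart.

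Elastases and chymotrypsins are proteases that acinar cells store as inactive precursors. *Cela2a*, a pancreatic elastase, read 1.53, 3.37, 1.72 and 5.85 on βUCP2Tg arrays 1 to 4 and 5.44, 6.51, 6.95 and 2.16 on WT arrays 1 to 4. βUCP2Tg 4 lay among the WT arrays and WT 4 among the βUCP2Tg arrays. The difference was -2.14 (SE 1.26, limma adjusted p = 0.315). Within WT islets alone *Cela2a* spanned 27.6-fold and within βUCP2Tg islets 20.1-fold. *Cela1*, a second elastase, read 1.70, 2.93, 1.96 and 5.14 in βUCP2Tg and 4.62, 5.39, 5.90 and 2.33 in WT islets, with the same arrays high and low. Its difference was -1.63 (SE 0.95, limma adjusted p = 0.313). All 7 members of the group had the shared order of arrays, with differences from -2.14 to -1.36, ranges over the arrays from 18.5-fold to 48.2-fold, and none called. A second tested probe of *Cela1* had the same 4 arrays highest and a difference of -1.27.

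Trypsinogens are the precursors of trypsin, which activates the other enzymes in the gut. *Try5* read -0.43, 1.84, 0.94 and 4.82 in βUCP2Tg and 3.68, 4.73, 4.88 and 0.87 in WT islets. *Try4* read -0.47, 1.93, 0.92 and 4.72 in βUCP2Tg and 3.80, 4.80, 4.81 and 0.64 in WT islets. The profiles of these 2 genes, whose probes share the 31 bases above, stayed within 0.21 of a constant difference on every array. Their differences between the genotypes were -1.75 (SE 1.23) and -1.74 (SE 1.26), with limma adjusted p of 0.403 and 0.414. *Prss2*, whose probe shares no such run and which was chosen after its values were seen, had the widest spread of the trypsinogens. It read -3.18, -0.41, -1.93 and 2.56 in βUCP2Tg and 1.45, 2.46, 2.92 and -3.05 in WT islets, a 69.0-fold range with the same 4 arrays high.

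*Prss1* was the exception among the enzymes and was also chosen after its values were seen. It read -0.09, -0.14, -0.50 and 0.34 in βUCP2Tg and 0.19, 0.94, -0.37 and -0.10 in WT islets, a range of 2.71-fold. WT 2 was its highest array, and WT 3, the highest for most enzymes, was among its lowest. Of the genes outside the list, *Gm10334*, a trypsinogen-like gene also picked after seeing its values, followed it within 0.25 of a constant difference on every array, although the longest run that the 2 probes share is 15 bases. *Gm5771*, whose probe shares 25 bases with that of *Prss1*, departed from a constant difference by up to 3.38. *Prss1* was 1 of 29 tested enzyme and granule genes, and the other 28 all had the shared order.

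The carboxypeptidases cut amino acids from the end of a peptide. *Cpa1*, carboxypeptidase A1, read -0.81, 0.70, -0.29 and 3.70 in βUCP2Tg and 2.62, 3.88, 4.36 and -0.22 in WT islets. *Cpb1*, carboxypeptidase B1, read -1.45, 0.85, -0.52 and 3.89 in βUCP2Tg and 3.03, 4.04, 4.73 and -1.0 in WT islets. In both, βUCP2Tg 4 was above WT 1, and WT 4 was below βUCP2Tg 2. The differences were -1.83 (SE 1.23) and -2.01 (SE 1.47), with limma adjusted p of 0.378 and 0.421.

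The lipases, amylase and ribonuclease digest fat, starch and RNA. *Amy1* read 0.66, 2.36, 1.24 and 5.15 in βUCP2Tg and 4.54, 5.39, 5.66 and 1.48 in WT islets. *Clps*, the colipase that anchors pancreatic lipase to fat droplets, read -0.84, 0.39, -0.52 and 3.04 in βUCP2Tg and 2.05, 3.43, 3.73 and -0.34 in WT islets. Again 1 βUCP2Tg array stood with 3 WT arrays. The differences were -1.92 (SE 1.18) and -1.70 (SE 1.09), with limma adjusted p of 0.338 and 0.358. *Pnlip*, pancreatic lipase, had the widest range of the 30 genes measured on every array, 76.5-fold. *Rnase1*, the pancreatic ribonuclease, had the narrowest of this group, 9.28-fold. The second probes of *Amy1* and *Pnlip* had the same 4 arrays highest, with differences of -2.21 and -2.23. All 8 genes of the group had the shared order of arrays. *Pnliprp2* was measured on 5 arrays only, so that its range is not given as a fold.

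*Sycn*, syncollin of the zymogen granule membrane, read -0.99, 0.22, -0.44 and 3.03 in βUCP2Tg and 2.12, 3.05, 3.63 and -0.26 in WT islets. *Zg16*, a lectin-like protein of the granule, read -2.47, -0.95, -2.19 and 1.74 in βUCP2Tg and 1.01, 1.95, 2.40 and -2.09 in WT islets. These genes encode no digestive enzyme, and the same arrays stood high as in the enzymes other than *Prss1*. The differences were -1.68 (SE 1.05) and -1.79 (SE 1.19), with limma adjusted p of 0.348 and 0.375. The other 5 of this group are *Gp2*, the main glycoprotein of the granule membrane, *Klk1*, the serpin *Serpini2*, the scavenger protein *Dmbt1* and the trefoil peptide *Tff2*. All 7 had the shared order, with differences from -2.09 to -0.78.

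**Figure D3:**
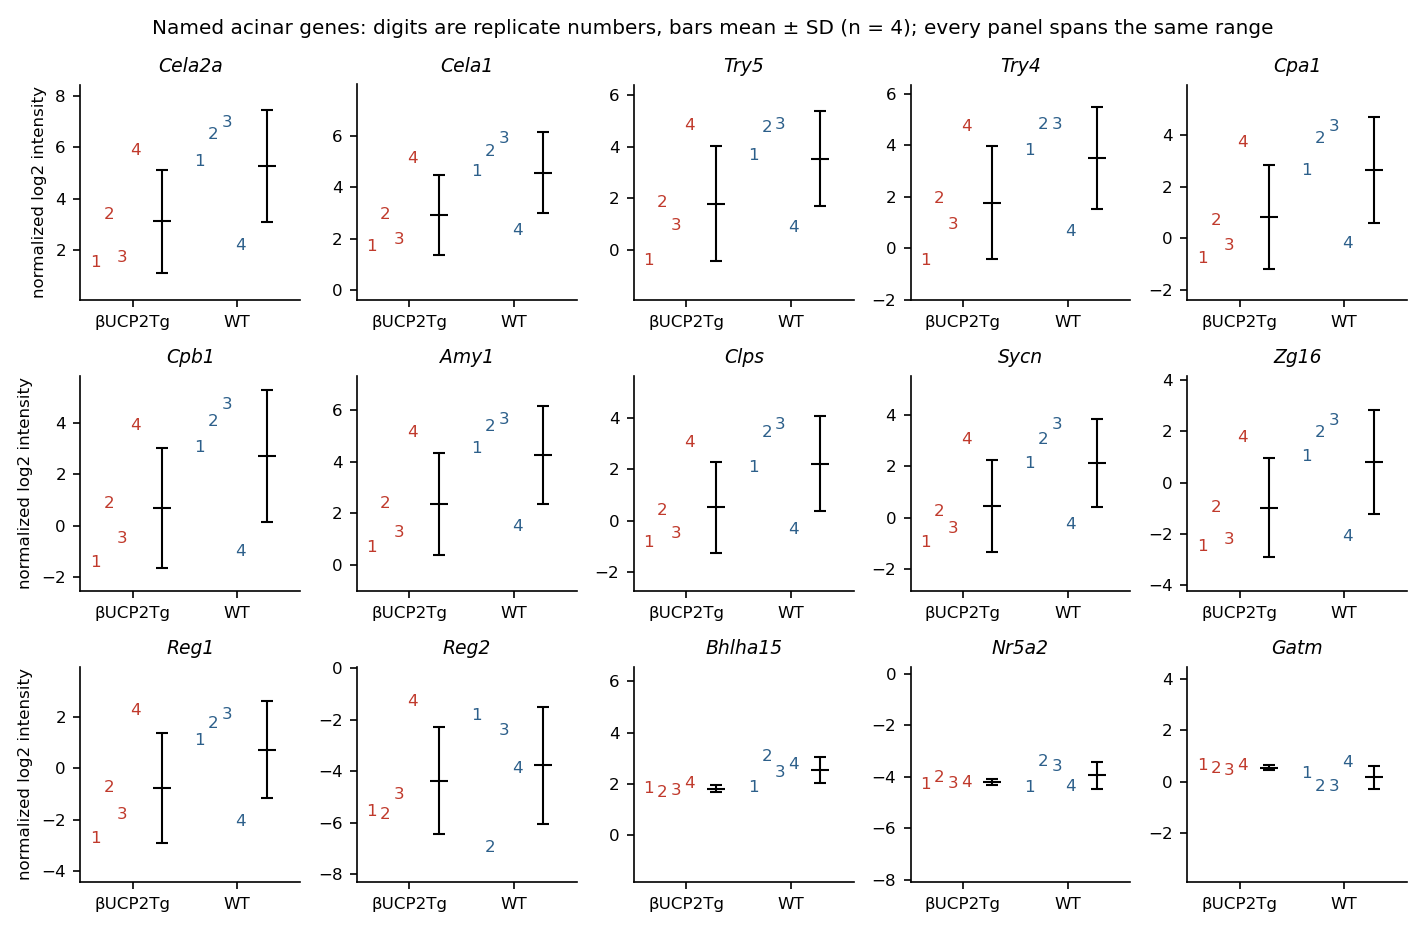
Normalized log2 intensity of the 15 named acinar genes, with each array drawn as its replicate number (βUCP2Tg red, WT blue) and the mean ± SD of 4 arrays in black; every panel spans the same number of log2 units. Replicate 4 of βUCP2Tg stands with WT 1 to 3, and WT 4 stands low, in the first 11 panels, and the panels of *Bhlha15*, *Nr5a2* and *Gatm* are narrow.

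The Reg proteins are secreted lectin-like proteins, which acinar cells make in larger amounts during injury and inflammation. *Reg1* followed the enzymes, with -2.71, -0.76, -1.79 and 2.23 in βUCP2Tg and 1.10, 1.75, 2.07 and -2.05 in WT islets. *Reg2* did not: it read -5.58, -5.67, -4.92 and -1.30 in βUCP2Tg and -1.84, -6.95, -2.42 and -3.88 in WT islets. Here WT 2, among the highest arrays for the enzymes, was the lowest and was not well above background. The differences were -1.47 (SE 1.22) for *Reg1* and -0.59 (SE 1.31) for *Reg2*, with limma adjusted p of 0.475 and 0.806. *Reg3b* and *Reg3d* were measured on 6 arrays each, and their adjusted p was 0.230 and 0.577.

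The transcription factors varied less between arrays than the enzymes other than *Prss1* (residual SD 0.467), but more than most probes, with residual SDs of 0.373 for *Bhlha15*, 0.605 for *Rbpjl* and 0.368 for *Nr5a2* against the median of 0.225 over all probes. *Bhlha15*, which controls the secretory apparatus of acinar cells, read 1.81, 1.69, 1.75 and 2.02 in βUCP2Tg and 1.86, 3.05, 2.45 and 2.74 in WT islets. The βUCP2Tg arrays lay close together, and WT 1 lay among them while the other 3 WT arrays lay above. Its difference was -0.71 (SE 0.24, 95% interval -1.25 to -0.17), with a limma adjusted p of 0.126 and a two-sided exact permutation p of 0.0571, where 4 against 4 arrays allow no less than 0.0286. Without WT 1 the difference was -0.93 with an adjusted p of 0.0186, and *Bhlha15* was then the only acinar gene called, where 5.51% of all probes were called lower in that fit.

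*Nr5a2*, a nuclear receptor of acinar cells, read -4.29, -4.04, -4.25 and -4.21 in βUCP2Tg and -4.40, -3.42, -3.60 and -4.37 in WT islets. WT 2 and WT 3 lay above the other 6 arrays, which spanned less than the gap to WT 3. The difference was -0.25 (SE 0.23, limma adjusted p = 0.530). *Rbpjl*, the DNA-binding partner of *Ptf1a* in acinar cells, had the shared order of arrays over a range of 3.01-fold. Its levels were low, from -5.75 to -4.17, though measured on every array, and its second probe was not well above background on any. *Gatm*, which makes the precursor of creatine, read 0.64, 0.50, 0.45 and 0.63 in βUCP2Tg and 0.33, -0.18, -0.18 and 0.75 in WT islets. WT 4, low for the enzymes, was its highest array, and WT 2 and 3 its lowest. Its difference was 0.37 (SE 0.21, limma adjusted p = 0.297), and a second tested probe gave 0.45.

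The spread is the measure in which these genes stood farthest from the rest. The residual SD within the genotypes had a median of 1.97 log2 units over the 37 genes and of 0.225 over all tested probes. It was above 1 in 32 of the 37 genes, as in 1.83% of all probes, and above the 99th percentile of all probes, 1.23, in 31. The exceptions with an SD of less than 1 were *Prss1*, *Bhlha15*, *Rbpjl*, *Nr5a2* and *Gatm*. Of the 50 tested genes with the largest residual SD, 18 belong to the list. These counts describe the arrays and carry no test, since genes that move together are not separate observations.

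**Figure D4:**
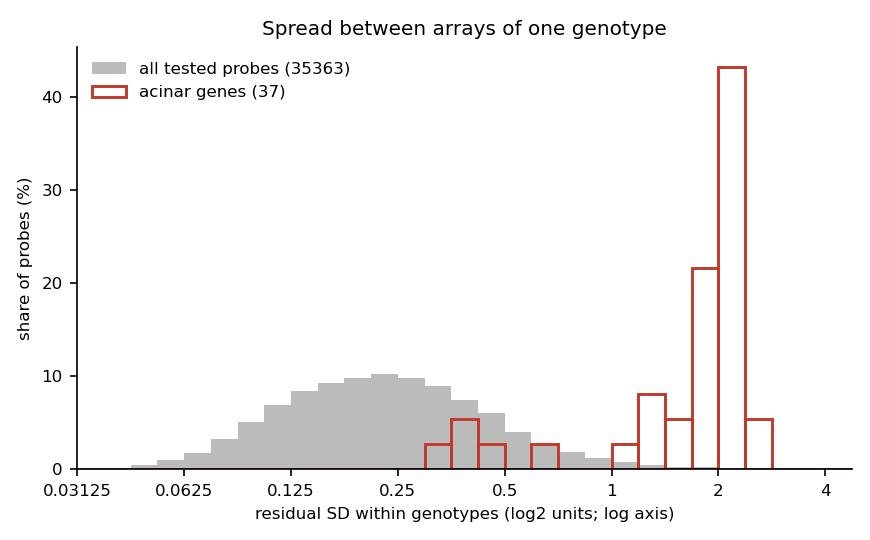
Residual SD within genotypes (log2 units, on a log axis) as the share of probes in each bin, for all 35363 tested probes in grey and the 37 acinar genes in red outline. Most acinar genes lie near their median of 1.97, beyond the 99th percentile of all probes (1.23), and 5 lie at an SD of less than 1.

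The summed level of the 20 tested elastases, chymotrypsins, trypsinogens, carboxypeptidases, lipases and colipase ran from 3.88 to 8.19 in βUCP2Tg and from 4.50 to 8.86 in WT islets. On each array the median of these 20 genes relative to each gene's own mean was -2.53, -0.87, -1.96 and 1.93 in βUCP2Tg and 1.02, 2.09, 2.42 and -2.02 in WT islets. Thus βUCP2Tg 4 stood near WT 2, and WT 4 near βUCP2Tg 3. The summed level of 10 β-cell genes, the brightest being *Ins2* and *Ins1*, ran from 10.2 to 10.6 in βUCP2Tg and stayed at 10.6 in WT islets, and none of them was called.

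Among duct markers, 10 of 12 were tested, the brightest being *Krt18* and *Spp1*, with 0 called (0.41% of all probes), 5 at an unadjusted p under 0.05 (25.2% of all probes), and none with the shared order of arrays (6.58% of all probes). Their summed level was 6.78 to 6.95 in βUCP2Tg and 6.65 to 7.59 in WT islets. Of 6 stellate cell markers (brightest *Col1a2* and *Dcn*), 5 endothelial (*Plvap* and *Kdr*) and 5 macrophage markers (*Csf1r* and *Lyz2*), none had the shared order, and 1, the macrophage gene *Cd14*, was called (lower in βUCP2Tg islets by limma, adjusted p = 0.0480), where 0.204% of all probes were called lower. The summed level of the macrophage markers was 2.26 to 2.74 in βUCP2Tg and 3.23 to 3.51 in WT islets, but of the 5 genes only 1 had no overlap between the groups, where 12.4% of all probes had none. WT 3 was the highest array in 5 of the stellate cell, 1 of the endothelial and 1 of the macrophage markers, where it was in 14.3% of all probes. The summed level of the stellate cell markers was 0.973 to 1.19 in βUCP2Tg and 0.106 to 1.44 in WT islets. Their part in the acinar values was not tested. The other acinar genes not on the list numbered 23, of which 14 were tested and 0 called, and 8 had the shared order, the brightest of the 14 being *Amy2a5*, which had it, and *Rab3d*, a GTPase of secretory granules, which did not (differences -2.02 and 0.59).

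**Figure D5:**
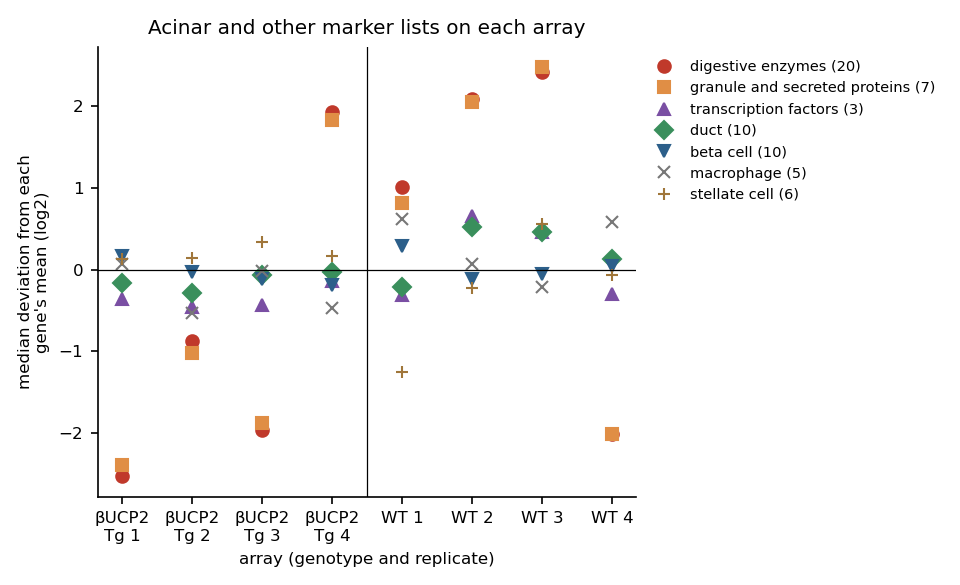
Median over each marker list of the normalized log2 intensity minus the gene's own mean, on each of the 8 arrays, with the number of genes in brackets. Digestive enzymes and granule proteins lie between -2.53 and 2.48, and the duct and β-cell lists stay within 0.53 of 0. On WT 1 the stellate cell list lies at -1.25 and the macrophage list at 0.62.

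Genes with a profile like that of the enzymes were ranked by Pearson's r over the 8 arrays with the median of the same 20 enzymes, as a description, since 4 arrays stood high and 4 low and each array is shared by all genes. Among the genes outside the list with the highest r were *Amy2a5*, *Amy2b*, *Klk1b24*, *Klk1b3*, *2210010C04Rik*, *Spink1*, *Egfbp2*, *Klk1b5* and *Gm5409*, from 0.997 down to 0.987. Those measured on every array spanned 24.3-fold or more, while *2210010C04Rik* and *Gm5409* were measured on 4 and 5 arrays only, so that no fold is given for them. *Spink1* encodes the trypsin inhibitor that acinar cells secrete, and *Amy2a5* and *Amy2b* encode pancreatic amylases. *Klk1b24*, *Klk1b3*, *Klk1b5* and *Egfbp2* are glandular kallikreins, as is *Klk1* on the list. Their probes share at most 6 bases in a run with that of *Klk1*, and those of *Klk1b5* and *Egfbp2* share 19 with each other. Probes alone were compared, so these signals may still share RNA. An r of at least 0.9 was found in 65 of 17806 genes outside the list (0.365%), of which 17 spanned more than 4-fold. An r of -0.9 or below was found in 49. Of the 20 enzymes that make up the reference profile, which their own values fixed in large part, 19 had an r of at least 0.9. So did 12 of the 17 acinar genes that are not part of it. Among the genes with the lowest r were *Otub1*, *Apmap*, *Tas2r113* and *Pdap1*, from -0.960 to -0.940, and none of these spanned more than 1.82-fold. Among the acinar genes, *Zg16* had an r of 0.999 and *Rbpjl* of 0.967, and *Gatm* alone was negative, at -0.711.

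The promoters of the acinar genes were also searched for short runs of letters. *Ptf1a* and *Rbpjl* bind a paired site in acinar promoters, made of an E-box and a TC-box, and the letters CACCTG and TTTCCCA were searched as one form of each, on both strands and with any overlap allowed. RefSeq windows of 250 bases before to 50 after the start (GRCm38.p6) were found for 34 of the 41 genes, 36 windows in all. CACCTG was in 61.1% of them and in 20.2% of all 32851 windows. TTTCCCA was in 9 of the 36, which is 25%, and in 8.1% of all windows. Both were in the windows of *Cel*, *Cela2a*, *Cela3a*, *Prss2* and *Reg3d*, which is 13.9%, against 1.6% of all windows. AAGGTCA, a form of the letters bound by *Nr5a2*, was in 11.1% and in 4.7% of all windows. A match of letters is a description and not a site of binding.

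Of these promoters, 3 are printed as the 250 bases before the start, on the strand of the gene, with CACCTG and TTTCCCA of either strand in capitals. *Cela2a* lies at chr4:141826006-141826255, minus strand, *Cel*, the carboxyl ester lipase, at chr2:28563404-28563653, minus strand, and *Prss2* at chr6:41521526-41521775, plus strand.
Cela2a: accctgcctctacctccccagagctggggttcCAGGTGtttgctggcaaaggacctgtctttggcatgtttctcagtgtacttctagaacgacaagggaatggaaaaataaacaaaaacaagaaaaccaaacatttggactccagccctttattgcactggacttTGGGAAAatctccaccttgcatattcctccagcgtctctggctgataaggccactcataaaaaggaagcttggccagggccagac
Cel: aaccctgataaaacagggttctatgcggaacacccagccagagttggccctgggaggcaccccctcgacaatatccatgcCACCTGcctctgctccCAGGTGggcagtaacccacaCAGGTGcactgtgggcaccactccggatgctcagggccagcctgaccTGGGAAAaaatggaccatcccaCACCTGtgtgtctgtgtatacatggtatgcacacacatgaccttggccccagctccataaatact
Prss2: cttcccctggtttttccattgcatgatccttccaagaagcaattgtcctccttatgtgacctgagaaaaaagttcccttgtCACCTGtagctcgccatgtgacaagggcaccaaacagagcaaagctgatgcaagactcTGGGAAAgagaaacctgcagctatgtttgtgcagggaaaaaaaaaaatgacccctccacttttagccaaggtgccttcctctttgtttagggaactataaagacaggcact
On the arrays above, the range of *Cela2a* was 42.8-fold, of *Cel* 48.9-fold and of *Prss2* 69.0-fold, with the same 4 arrays high in each. The 6 tested genes without this order, *Prss1*, *Reg2*, *Reg3b*, *Bhlha15*, *Nr5a2* and *Gatm*, all have CACCTG in their windows too. Whether these letters bear on the array values was not tested.

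Leaving out single arrays moved the size of the differences. The median over the tested acinar genes was -2.68 without βUCP2Tg 4 and -2.64 without WT 4, and -1.13 without βUCP2Tg 1. Acinar genes remained uncalled in each of these fits. Of all probes, 3.14%, 0.017% and 0.00566% were called lower without βUCP2Tg 4, WT 4 and βUCP2Tg 1 in turn, and 0.99%, 0.0509% and 0.0424% higher. With limma's array weights, which were 0.597 for βUCP2Tg 4, 0.493 for WT 4 and 0.276 for WT 1 and from 0.963 to 2.25 for the other 5 arrays, 21 of the 37 were called lower, where 11.7% of all probes were called lower. At an unadjusted p under 0.05, 34 of the 37 then passed, where 46.4% of all probes did. The same count was 27 without βUCP2Tg 4, where 28.6% of all probes passed, and 28 without WT 4, where 24.9% passed.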

How the data were processed

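RNA of 8 mouse islet samples, 4 per genotype, was labelled with Cy3 and hybridised to Agilent mouse arrays. The authors extracted the scans with Agilent Feature Extraction (9.1 in the submitters' processing notes, 10.7.3.1 per the file headers, which also name mm9). The deposited scanner files hold spot intensity on a linear scale, background subtracted and not scaled between arrays. The authors' deposited GeneSpring table holds normalized log2 values, equal to the scaled scanner values plus a constant per array (0.506 to 0.551). Its fold changes and p-values were not used.

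Control and outlier spots were removed, each array was scaled on the log2 scale by its 75th percentile, and spots of 1 probe were averaged. Probes with at least 50% of their spots well above background counted as measured, and those measured on 4 arrays or more were tested. The genotypes were compared with limma (3.58.1, R 4.3.3, data.table version 1.17.8) over 35363 probes, and single genes by two-sided exact permutation. On simulated data of this comparison (35363 probes, 200 changed), 56% of 2-fold and 89% of 4-fold changes were recovered, with 2 false calls. In the simulation each probe kept its own residual SD, and the changed probes were drawn from all probes. The rates are therefore averages over all spreads (median residual SD 0.225) and were not computed for the acinar genes (1.97). For the acinar genes this spread over 4 arrays per group limits the precision.

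The members, lists and tests were chosen with earlier results of these data known. Array values are given for the 2 brightest genes of each role group and for any called or without overlap. Outside the list, *Ucp2*, islet hormones, the 2 brightest genes of marker lists and the 10 genes most and the 5 least like the enzymes are named, apart from genes not reported here. Other filters, scalings, background corrections and fits, a block by replicate number and single arrays left out were the alternatives. Promoters and symbols are from RefSeq (GRCm38.p6). Figures were drawn in Python 3.11.15 with matplotlib 3.10.9.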

Additional observations from a re-analysis of the deposited data

Results flagged for a closer look

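In groups of 4 arrays, the gap of the highest or lowest array to its neighbour was divided by the range of the group and compared with Dixon's 95% critical value. Of 74 groups, 37 genes in 2 genotypes, 4 were above it, which is about the 5% that chance gives. In βUCP2Tg islets these were *Gp2* (ratio 0.878), *Serpini2* (0.919) and *Reg3d* (0.880), each with βUCP2Tg 4 above the other 3 arrays. *Gp2* read 0.36 on βUCP2Tg 4 and -3.55, -3.17 and -3.66 on βUCP2Tg 1 to 3, *Serpini2* read -2.93 against -5.77, -5.90 and -5.66, and *Reg3d* read -2.92 against -5.46, -5.81 and -5.56. In WT islets it was *Rbpjl* (0.894), with -5.19 on WT 4 and -4.27, -4.20 and -4.17 on WT 1 to 3. These genes were chosen after their values were seen, and the arrays are those that stood apart for most acinar genes.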

How the results depend on the processing

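Under 22 alternatives, 8 of which leave out 1 array, 15 named acinar genes gave 329 values, and 319 kept their direction and their side of the threshold. *Reg2* reversed once, to 0.052 without WT replicate 1, and leaving out 1 array gave -1.65 to 0.052. With array weights 21 acinar genes were called lower (11.7% of all probes), and without WT replicate 1 there was 1, *Bhlha15* (5.51%). Over the arrays left out in turn this count was 0 to 1. Under the other alternatives it was 0, where at most 3.14% of all probes (without βUCP2Tg 4) were called lower. None was called higher under any of the 22, where 0.0311% (without βUCP2Tg 2) to 7.19% (array weights) of all probes were. The median difference stayed negative, between -2.89 (array weights) and -1.13, and leaving out 1 array gave -2.68 to -1.13. The number of genes at an unadjusted p under 0.05 rose from 1 (25.2% of all probes) to 27 without βUCP2Tg 4 (28.6%), 28 without WT 4 (24.9%), 34 with array weights (46.4%) and 4 with normexp correction (36.3%). The median residual SD was 1.59 to 2.16 over the arrays left out in turn, the lowest without βUCP2Tg 4 and 1.59 also without WT 4. The cause of these shifts was not tested.

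With the replicate number as a block, 0 acinar genes were called, where 0.0368% of all probes were called higher and 0.00283% lower. The median residual SD of the acinar genes was then 2.66. Deviations of same-numbered arrays correlated by 0.44, -0.05, -0.01 and -0.24, and βUCP2Tg 1 and WT 1 were each other's best match. These values do not settle whether the numbers pair the samples. Dim probes limit *Pnliprp2*, *Klk1*, *Serpini2*, *Tff2*, *Reg2*, *Reg3b* and *Reg3d*, which were not well above background on every array.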
